A study of Homo sapiens with 4 samples.

Results

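Alternative 3′ splice sites that lie 12 to 40 nt apart were examined in chromatin-bound RNA of K562, an established cell line from a chronic myeloid leukaemia. A member is a pair of annotated introns on the same chromosome and strand that use the same 5′ splice site and end 12 to 40 nt from each other, with at least 1 junction read for each intron in some library. Members were thus chosen by measured junction reads as well as by position. Pairs with every read at 1 site were left out, so the rule bears on the balance between the sites. Genotype is no part of the rule, but a pair can be a member through reads of 1 genotype only. The site closer to the shared 5′ splice site is called the near site and the other the far site. The rule found 401 such pairs in 362 genes, of 8360 pairs that share a 5′ splice site and whose 3′ splice sites lie 12 nt or more apart. The readout is the near-site share, the percentage of a pair's junction reads that end at the near site.

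The samples were 2 libraries of cells expressing SF3B1 K700E and 2 of cells expressing wild-type SF3B1 (WT). In both genotypes the allele was induced with doxycycline at 1 µg/ml, and cells were harvested after 4 days. The labels do not say whether the replicates came from separate cultures or clones, and a p-value therefore reflects only how far these libraries scatter, which may be technical. The tables hold no base calls, so the K700E allele itself was not examined here. Nascent RNA was freed of polyadenylated and ribosomal RNA and read with PacBio long reads. The comparison addresses whether mutant SF3B1 alters splicing while RNA is still bound to chromatin.

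A 3′ splice site is an AG dinucleotide preceded by a pyrimidine-rich tract and a branch point adenosine. SF3B1, in the U2 small nuclear ribonucleoprotein, holds the branch point, and the first step of splicing is made there before an AG downstream is joined to the 5′ exon. Substitutions of SF3B1 at hotspots such as K700 are known for the use of cryptic AGs a short way upstream of the usual one, which in the terms used here would be near sites. Pairs at short distances are also common in normal cells, where they insert or remove a few codons or shift the reading frame.

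The K700E libraries held 459726 and 909679 read-intron overlaps on unique annotated introns, and the WT libraries 1346809 and 1185049. The 401 pairs drew 1178 and 2766 junction reads in K700E, against 3809 and 3080 in WT. They hold 783 unique introns, and an intron in more than 1 pair is counted in each. These sums therefore hold some reads more than once. K700E replicate 1 was the shallowest and reached 10 junction reads in 31 pairs, while the other libraries did so in 87 to 120. The labels give the cell type as epithelial. Of 10 genes of the K562 and erythroid list, 8 had reads in every library, with sums of 1261 and 2495 overlaps in K700E and 3701 and 5167 in WT. TFRC and BCR together held most of these sums. GATA1 had 6 and 10 overlaps in K700E and 4 and 11 in WT. KLF1 had none. The 8 epithelial genes summed to 15 and 33 overlaps in K700E and 12 and 22 in WT, and only EPCAM had reads in every library. Of 3 lymphoid genes, PTPRC alone had reads in every library and held most of the list's 687 and 1328 overlaps in K700E and 523 and 1019 in WT.

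The bases between the sites are exonic in transcripts that use the near site, so they could be read from GENCODE 29 transcript sequences on GRCh38. The pairs shown here are some of those with large differences between genotypes, EIF4A2 for its separated libraries, 4 deeply read pairs and, with DLST and ENOSF1, further genes reported as SF3B1 targets. Each run starts with the first base after the near site, or 30 bases of intron earlier where an annotated transcript retains them, and ends 12 bases into the exon of the far site. Capitals mark the AG of the far site and, where intron bases are shown, that of the near site.
ANKHD1 (33 nt, chr5:140438461-140438505, plus strand): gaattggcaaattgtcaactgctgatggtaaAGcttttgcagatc
LARP4 (18 nt, chr12:50428917-50428946, plus strand): tgtctgtctttaatacAGgtaatgcagagc
EIF4A2 (16 nt, chr3:186787449-186787506, plus strand): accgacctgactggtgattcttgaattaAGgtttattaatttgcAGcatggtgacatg
GK5 (29 nt, chr3:142177565-142177605, minus strand): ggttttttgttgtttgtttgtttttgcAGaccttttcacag
RBM39 (18 nt, chr20:35709245-35709304, minus strand): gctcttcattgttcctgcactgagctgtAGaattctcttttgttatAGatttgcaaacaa
TBC1D32 (18 nt, chr6:121317661-121317690, minus strand): actaccttgaatttaaAGgtacaaagaaat
CRYZL1 (37 nt, chr21:33599237-33599285, minus strand): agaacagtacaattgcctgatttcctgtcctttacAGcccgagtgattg
OGT (30 nt, chrX:71536178-71536219, plus strand): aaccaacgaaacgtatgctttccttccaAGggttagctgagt
UBR4 (40 nt, chr1:19153888-19153939, minus strand): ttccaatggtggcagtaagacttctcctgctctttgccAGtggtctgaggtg
NUP107 (28 nt, chr12:68690573-68690642, plus strand): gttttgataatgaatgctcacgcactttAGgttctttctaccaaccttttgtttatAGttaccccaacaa
NUP107 (32 nt, chr12:68696819-68696862, plus strand): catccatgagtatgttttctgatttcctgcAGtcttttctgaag
DLST (19 nt, chr14:74889878-74889908, plus strand): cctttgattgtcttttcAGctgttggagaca
ENOSF1 (15 nt, chr18:683369-683395, minus strand): agtctctttttgcAGatgatggatgcc

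The intervals of GK5, DLST and ENOSF1 are rich in T up to the far AG, whereas ANKHD1 and TBC1D32 have mixed sequence. UBR4 is mixed at first and rich in C and T just before the far AG. Over the 400 pairs whose interval could be read, 398 ended in AG at the far site. All 103 near sites with annotated intron sequence before them also ended in AG. The interval, without its last AG, had a median of 69.0% pyrimidines, and 141 intervals (35.3%) held a further AG. The letters AG were searched on the transcript's strand only. Pairs with at least 20 junction reads over the 4 libraries were also split by the site they favoured. The 91 pairs that favoured the far site had intervals with a median of 75% pyrimidines (quartiles 63.4 and 78.9%), and 17 of them (18.7%) held a further AG. The 64 that favoured the near site had a median of 64.0% (quartiles 56.8 and 72.5%), and 28 (43.8%) held a further AG. Across 156 pairs, which share libraries and some genes, pyrimidine percentage and near-site share had a Pearson r of -0.28. These splits use the readout and are descriptions without a test. Interval length was not matched between them, and a longer interval has more places for a further AG.

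Distances were uneven across the window. The commonest were 15 nt with 28 pairs, 18 and 20 nt with 25 each and 21 nt with 24. In 182 pairs (45.4%) the distance was a multiple of 3, so that both products keep the same frame, and the share was 46.7% in the 319 pairs within a coding sequence, 34.9% in 63 pairs in untranslated regions and 57.9% in 19 pairs of transcripts without a coding sequence. Among the 609 pairs 41 to 200 nt apart it was 36.9%. At the lower edge of the window, 0 of 22 pairs at 12 nt had the same junction counts at both sites in all libraries, against 5 of 13 pairs (38.5%) at 11 nt. At the upper edge there were 14 pairs at 40 nt and 7 at 41 nt. Over the window 11 pairs (2.74%) had identical counts. A further annotated 3′ splice site within 11 nt of either member site was present in 38 pairs. Counts at such close sites are often not separate. Identical counts in all libraries were found in 1297 of 1308 pairs (99.2%) at 1 to 7 nt. At 8 to 11 nt they were found in 48 of 83 (57.8%). The same reads may thus be counted at both sites. The pairs rest on 382 5′ splice sites, with 38 pairs that share theirs with another pair, so members are not independent.

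**Figure D1:**
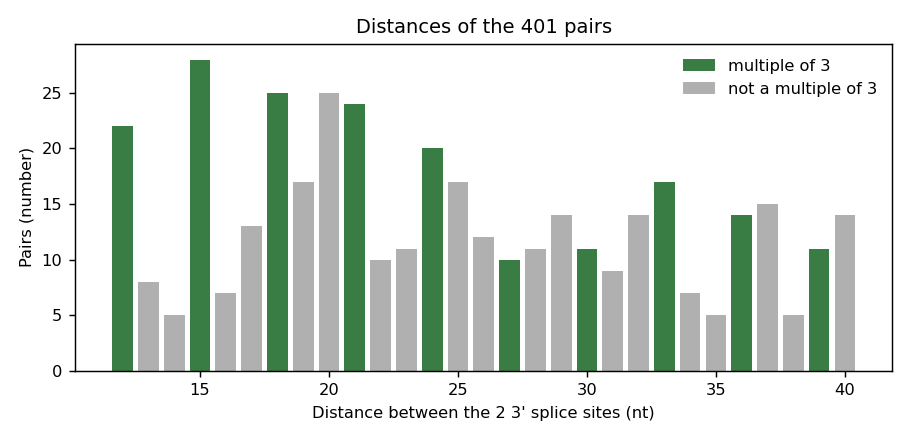
Number of pairs (y axis) at each distance between the near and the far 3′ splice site in nt (x axis), with multiples of 3 in green and other distances in grey. Multiples of 3 make up 182 of the 401 pairs, and 15 nt is the commonest distance with 28.

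Most pairs leaned to one site, and the far site was favoured more often. Over the 4 libraries the near site had more reads in 154 pairs, the far site in 208, and 39 were equal. A pair drew a median of 14 junction reads, with 2 at the lowest and 386 at the highest, and 150 pairs had fewer than 10. In the 157 pairs with at least 20 reads the median near-site share was 29.4%. Of these, 33 stood under 5%, 21 over 95% and 103 (65.6%) between 5 and 95%, with 34 between 25 and 75%. Of 189 pairs at 41 to 200 nt with as many reads, 69.3% stood between 5 and 95% and the median near-site share was 70.3%. Within the window the median near-site share was 24.1% for 53 pairs at 12 to 20 nt, 14.6% for 61 at 21 to 30 nt and 68.1% for 43 at 31 to 40 nt. Use of both sites, between 5 and 95%, was found in 60 of 79 pairs (75.9%) whose distance was a multiple of 3 and in 43 of 78 others (55.1%). Within coding sequences the counts were 48 of 65 (73.8%) and 34 of 68 (50%). Pairs in which only the near or only the far site was read are not members and do not enter these percentages. The annotation pointed to the more used site: of 142 pairs with at least 20 reads and unequal transcript numbers, 132 (93.0%) had more reads at the site that more GENCODE 29 transcripts use.

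**Figure D2:**
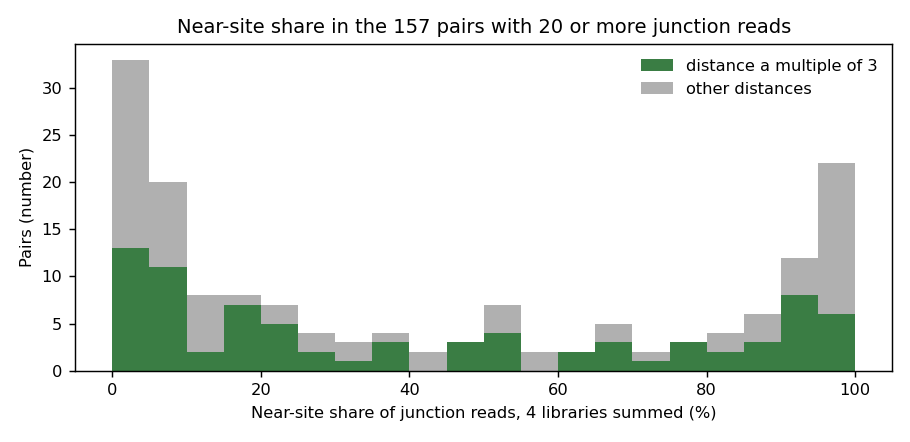
Number of pairs (y axis) by near-site share in 5-point bins, summed over the 4 libraries (x axis, %), for the 157 pairs with 20 or more junction reads, with distances that are multiples of 3 in green and others in grey. Both ends are filled: 33 pairs stand under 5% and 21 over 95%.

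Some pairs used both sites almost evenly. GPR89B, which encodes a Golgi pH regulator, stood at 50% of 78 reads, but it has the near-identical paralogue GPR89A (51.4% of 37 reads in the same pair), and reads could be split between the copies. IMMT, a scaffold of mitochondrial cristae, stood at 51.2% of 82 reads and TRPC4AP at 50.6% of 85. These pairs were chosen after their values were seen.

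Only 24 of the 401 pairs (5.99%) had at least 10 junction reads in every library and were tested for a difference between genotypes. The test was fitted on all 311 pairs at 12 nt or more with that depth, with adjustment over all 311. In edgeR's quasi-likelihood test 0 of the 24 pairs passed at a false discovery rate of 0.05, against 0% of all 311. At an unadjusted p under 0.05 it had 1 of the 24 (4.17%), against 2.57% of all 311 pairs. With 1 junction read in every library as the minimum it had 7 of 228 (3.07%), against 0.78% of 4489 pairs, again with 0 passing. DESeq2 also called 0 of the 24, with 0 at an unadjusted p under 0.05, against 0.643% of all 311. In limma 0 passed and 3 (12.5%; ANKHD1, LARP4 and SEC31A) had an unadjusted p under 0.05, against 8.04% of all 311. The smallest adjusted p among the 24 was 0.847 in edgeR and 0.560 in limma. The near-site share was on average higher in K700E in 14 pairs and lower in 10, with a median difference of 0.34 percentage points, against 0.42 over all 311 pairs. In 17 of the 24 the difference was under 5 points. Both K700E libraries stood above both WT libraries in 2 pairs (8.33%), against 15.4% of all 311, and below them in 4 (16.7%), against 10.3% of all 311. PIK3CB, 1 of the 4, and SEC31A, NUP85 and ATAD2 had reads at the less used site only in K700E, and XRCC5 only in WT. These pairs are members only through that genotype, which fixed the direction of their differences. The same rule applied to all 311 pairs.

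**Figure D3:**
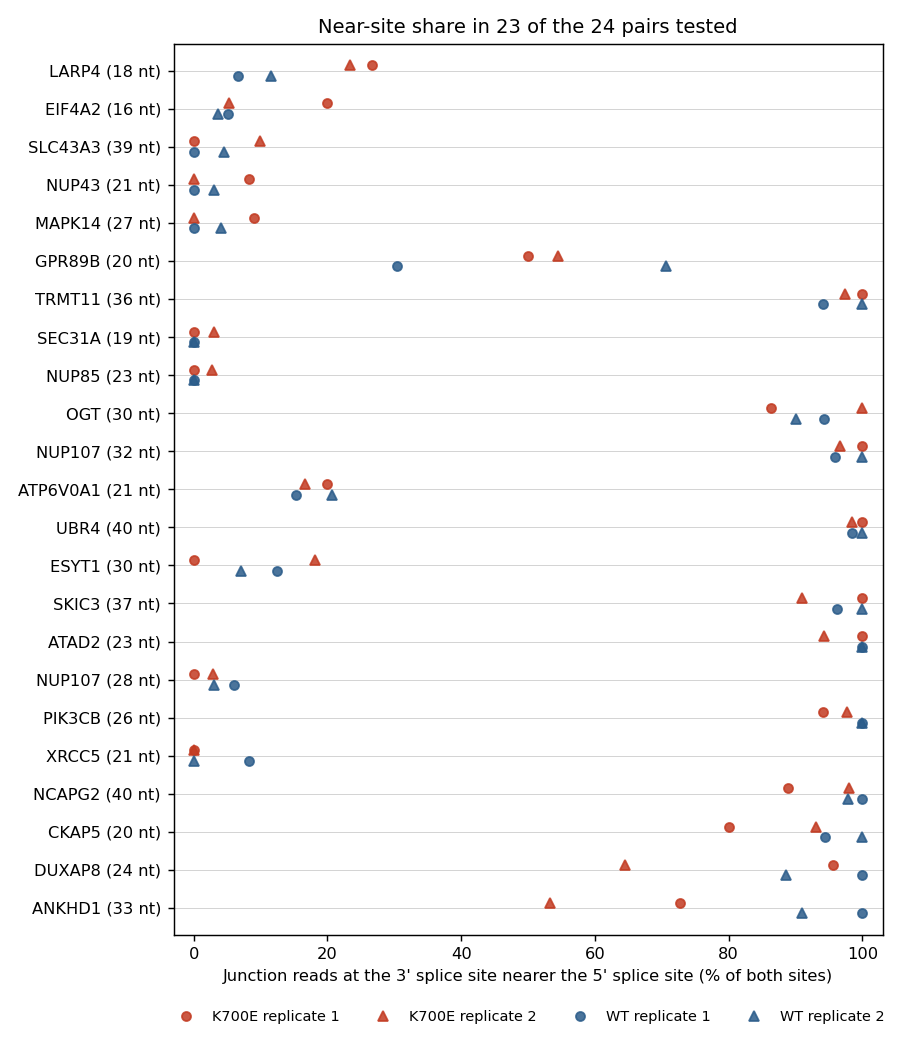
Near-site share of junction reads (x axis, %) in each library for 23 of the 24 pairs tested, ordered by the difference between genotypes, with K700E in red, WT in blue, replicate 1 as circles and replicate 2 as triangles. Most pairs sit at one end with overlapping genotypes; ANKHD1 at the bottom and LARP4 at the top are furthest apart, and neither passed the test.

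Among the 24 tested pairs the largest difference was in ANKHD1, which encodes an ankyrin repeat and KH domain protein and was on the list of genes with reported 3′ splice site changes in SF3B1-mutant cells. The intron (chromosome 5, 140436258 to 140438460 for the near site and to 140438493 for the far site, hg38, plus strand) is shared with the read-through gene ANKHD1-EIF4EBP3. Near and far junction reads were 8 and 3 in K700E replicate 1 and 8 and 7 in replicate 2, against 13 and 0 in WT replicate 1 and 10 and 1 in replicate 2. The near-site share was thus 72.7% and 53.3% in K700E and 100% and 90.9% in WT, and the groups did not overlap. The far site, which 1 annotated transcript uses, drew a larger part of the reads in both K700E libraries than in either WT library. Within the pair, this direction is opposite to the use of upstream AGs described above for SF3B1 hotspot substitutions. The list was matched by gene and not by splice site, so whether this pair holds the reported site was not examined. The difference was -32.4 percentage points and the log2 odds ratio -3.55 ± 1.06 (standard error), with an unadjusted p of 0.0394 and an adjusted p of 0.847 in edgeR. Counting error alone gave 95% Wilson intervals of 43.4 to 90.3% and 30.1 to 75.2% in K700E and 77.2 to 100% and 62.3 to 98.4% in WT. Another annotated site lies 9 nt beyond the far one, at 42 nt from the near site, and had 0 and 1 reads in K700E and 0 and 1 in WT. Relative to that site, the far site of this pair is itself the upstream AG.

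LARP4 encodes a La-related protein that binds poly(A) and stabilizes mRNA. It had near and far reads of 4 and 11 and of 7 and 23 in K700E, against 1 and 14 and 3 and 23 in WT (chromosome 12, 50427910 to 50428916 and 50428934, plus strand). The near-site share was 26.7% and 23.3% in K700E and 6.67% and 11.5% in WT, so both K700E libraries were higher. The difference of 15.9 points had an edgeR unadjusted p of 0.0677 and an adjusted p of 0.847. EIF4A2, an RNA helicase of translation initiation, was the other pair with both K700E libraries above. Its near-site share was 20% and 5.26% in K700E and 5.08% and 3.70% in WT, from 10 and 19 reads in K700E and 59 and 27 in WT. The higher K700E value rests on 2 near reads of 10, with a Wilson interval of 5.67 to 51.0%.

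CKAP5, which encodes a microtubule polymerase, was lower in both K700E libraries, at 80% and 93.1%, against 94.4% and 100% in WT. The pair lies in an untranslated region. PIK3CB, the catalytic subunit p110β of phosphoinositide 3-kinase, stood at 94.1% and 97.7% in K700E and at 100% in both WT libraries. With 1 far read in each K700E library, it is a member only through K700E. The NUP107 pair at 28 nt stood at 0 and 2.94% in K700E and 6.06 and 3.03% in WT. Differences of this kind are made by 1 to 3 reads of the minor site. Their adjusted p in edgeR was 0.847 each.

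OGT encodes the O-GlcNAc transferase, and its pair at 30 nt inserts or removes a multiple of 3 bases in the coding sequence (chromosome X, 71533337 to 71536177 and 71536207, plus strand). Near and far reads were 19 and 3 and 47 and 0 in K700E, against 33 and 2 and 117 and 13 in WT. The near-site shares of 86.4% and 100% in K700E span those of WT, 94.3% and 90%. They differed by 1.04 points on average, which became -5.78 when K700E replicate 2 was left out and -1.10 when WT replicate 2 was.

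UBR4, a ubiquitin ligase, was the most deeply read pair with 386 junction reads. The near site took 100% and 98.5% in K700E and 98.4% and 100% in WT, with 1 far read in K700E and 3 in WT over all libraries. NCAPG2, a condensin II subunit, stood at 88.9% and 97.9% in K700E and 100% and 97.8% in WT, and the difference of -5.51 points was -0.996 when K700E replicate 1 was left out and -10.0 when K700E replicate 2 was. SEC31A, a COPII coat subunit of the endoplasmic reticulum, used the far site in all reads but 1, with a near-site share of 0 and 3.13% in K700E and 0% in both WT libraries. The 0 of 54 reads in WT replicate 2 allows a share of up to 5.56%.

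Genes of the nuclear pore can be set side by side. The members include 7 pairs in 5 nucleoporin genes, of which 4 pairs in NUP107, NUP85 and NUP43 were tested; all 3 encode parts of the Y-shaped scaffold of the pore. This group was chosen after the members were seen. The near site of the NUP107 pair at 32 nt took 100% and 96.7% of reads in K700E and 95.8% and 100% in WT. NUP85 stood at 0 and 2.78% in K700E and at 0% in both WT libraries, and NUP43 at 8.33% and 0% in K700E and 0% and 3.13% in WT. All 4 pairs were used almost wholly at the site with more annotated transcripts in both genotypes.

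The remaining tested pairs overlapped between genotypes. DUXAP8, a pseudogene transcript of a multicopy family whose reads could come from near-identical copies, stood at 95.7% and 64.5% in K700E and 100% and 88.6% in WT. ATP6V0A1, a proton pump subunit, was steadier at 20% and 16.7% in K700E and 15.4% and 20.8% in WT, and ESYT1, a tether between endoplasmic reticulum and plasma membrane, varied within each genotype (0% and 18.2% in K700E, 12.5% and 7.14% in WT). GPR89B stood at 50% and 54.5% in K700E and 30.4% and 70.6% in WT. XRCC5, the larger subunit of the Ku DNA end-binding complex, had its 1 near read in WT replicate 1. In ATAD2, SKIC3 and TRMT11 the near site, and in MAPK14 and SLC43A3 the far site, took at least 90% of reads in every library.

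Averaged over the 24 pairs, the near-site share was 49.9% and 49.2% in K700E and 50.3% and 51.7% in WT. The difference of -1.42 percentage points separated the groups but had the smallest p that 2 against 2 samples allow (exact permutation test, two-sided, p = 0.33). With a minimum of 5 junction reads the difference over 63 pairs was 0.73 points, and without the 2 pairs that have another annotated site close by, ANKHD1 among them, it was -0.14. By distance, the 6 pairs at 12 to 20 nt stood at 37.1% and 39.9% in K700E and 30.9% and 38.5% in WT, which overlap. The 11 pairs at 21 to 30 nt stood at 37.6% and 36.1% in K700E and 39.7% and 37.9% in WT. The 7 pairs at 31 to 40 nt stood at 80.2% and 77.8% in K700E and 83.5% and 84.8% in WT. The differences were 3.84, -1.94 and -5.11 points, with exact permutation p-values of 0.667, 0.33 and 0.33. At 12 to 20 nt, leaving out WT replicate 1 gave 0.01 and leaving out WT replicate 2 gave 7.66. That at 21 to 30 nt turned to 1.58 with a minimum of 5 reads, and that at 31 to 40 nt was -0.56 without pairs that have another close site, since ANKHD1 leaves it. Relative to the 18 pairs at 41 to 200 nt tested alongside, whose mean was 69.0% and 68.7% in K700E and 65.9% and 68.5% in WT, the difference of the 12 to 40 nt pairs was -3.03 points (exact permutation p = 0.33), and 3.07 with a minimum of 5 reads.

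Summed over the reads of all 401 pairs, the near-site share was 49.1% and 48.0% in K700E and 46.3% and 44.8% in WT. This difference of 2.98 points has the opposite sign to the mean over tested pairs. At 12 to 20 nt the summed share was 45.2% and 43.7% in K700E and 39.5% and 35.6% in WT, and at 21 to 30 nt 41.2% and 37.2% in K700E and 31.2% and 35.2% in WT. Both sets of values separated the genotypes (exact permutation p = 0.33 each, the smallest possible). At 31 to 40 nt the values were 63.5% and 67.8% in K700E and 73.3% and 67.6% in WT, which overlap. Summed shares weight pairs by their reads, so they also depend on which pairs each library covered. Reads of an intron in several pairs are counted in each. With each pair counted equally among the pairs that had a read in every library, the differences were 0.26 points at 12 to 20 nt and -2.51 at 21 to 30 nt.

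**Figure D4:**
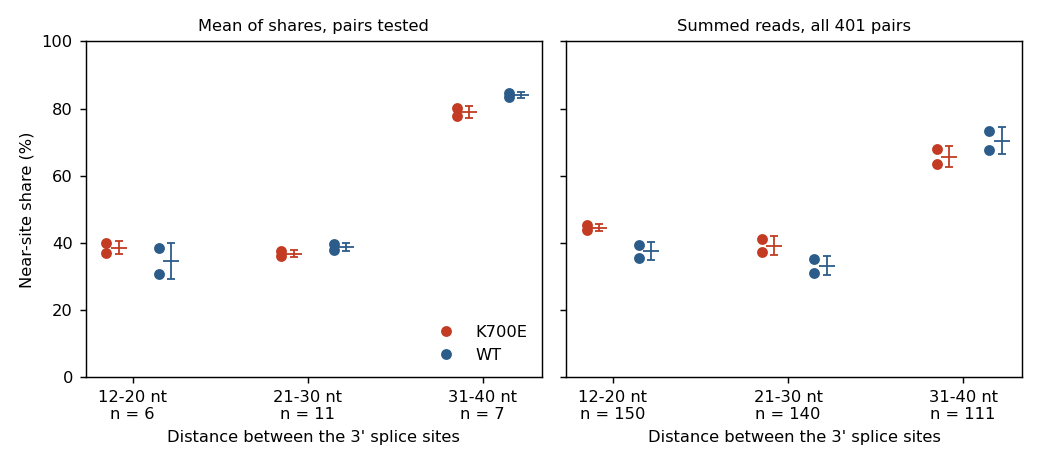
Near-site share (y axis, %) by distance class (x axis) in the K700E (red) and WT (blue) libraries, as the mean over the 24 tested pairs (left) and as summed reads of all 401 pairs (right); dots are libraries, and dashes with bars are the mean ± SD of 2 libraries. The classes at 12 to 20 and 21 to 30 nt separate the genotypes in the summed reads, and the same direction does not appear at 21 to 30 nt in the mean over pairs.

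With reads summed per genotype, 109 pairs had at least 10 junction reads in each. CCDC138 enters with pairs at 32 and 37 nt that have the same counts in every library. The near-site share was higher in K700E in 50 and lower in 59, with a median difference of -0.84 points (quartiles -5.72 and 6.41). It was over 20 points higher in 6 pairs and over 20 points lower in 3, against 6 and 5 of 120 pairs at 41 to 200 nt. By distance 21 of 36 pairs were higher at 12 to 20 nt, 18 of 40 at 21 to 30 nt and 11 of 33 at 31 to 40 nt. A fit on all 2058 pairs with that depth, added after the data were seen, called 0 of the 109 in edgeR. At an unadjusted p under 0.05 it had 5 (4.59%, 2 higher and 3 lower), against 1.31% of all 2058 pairs, and their adjusted p was 0.850.

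**Figure D5:**
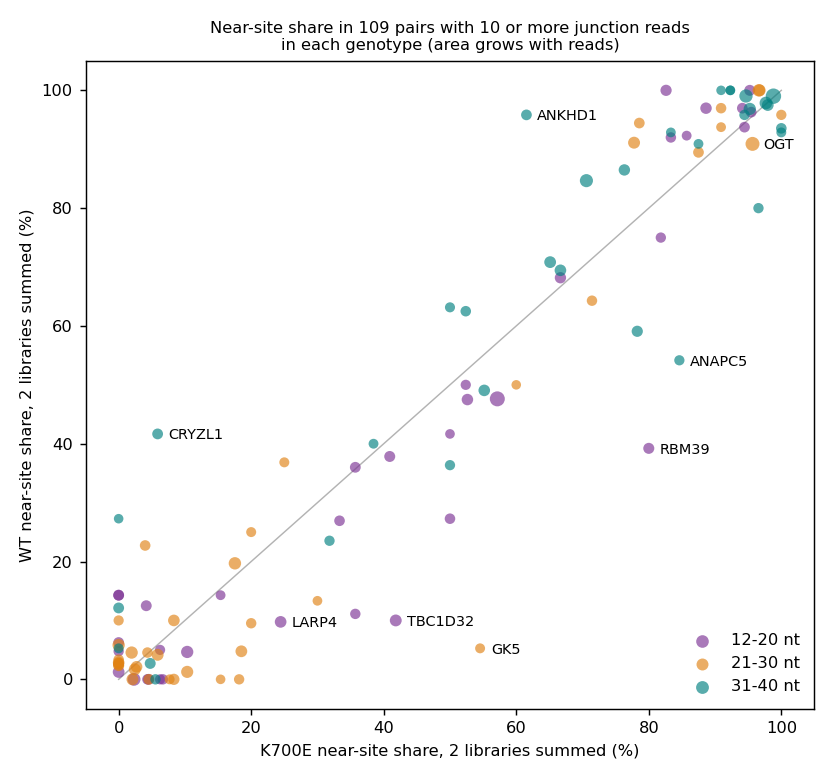
Near-site share in K700E (x axis, %) against WT (y axis, %), each summed over 2 libraries, for the 109 pairs with at least 10 junction reads in each genotype, coloured by distance, with larger points for more reads and a line of equality. Most pairs follow the line, with GK5, RBM39, TBC1D32 and ANAPC5 to its right and ANKHD1 and CRYZL1 to its left.

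The pairs described next lie away from equality in these sums. They were chosen after their values were seen, and none had 10 junction reads in every library. GK5, a glycerol kinase family member, had 3 and 3 and 3 and 2 near and far reads in K700E, against 0 and 12 and 1 and 6 in WT. The near site, used by 1 annotated transcript, took 54.5% of 11 reads in K700E and 5.26% of 19 in WT. It was higher in both K700E libraries than in both WT libraries (edgeR unadjusted p = 0.0421). TBC1D32, a ciliary protein gene, stood at 41.8% of 55 reads in K700E and 10% of 40 in WT (unadjusted p = 0.0447). All 23 near reads in K700E came from replicate 2, while replicate 1 had 0 of 5, and WT had 4 of 27 and 0 of 13. RBM39, itself a splicing factor that works with the U2 machinery, stood at 80% of 10 reads in K700E and 39.2% of 51 in WT (unadjusted p = 0.0860). ANAPC5, a subunit of the anaphase-promoting complex, stood at 84.6% of 13 reads in K700E and 54.2% of 24 in WT (unadjusted p = 0.198). Its WT libraries stood at 33.3% and 75%.

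CRYZL1, a quinone oxidoreductase-like gene, lay on the other side, with near reads of 0 of 6 and 1 of 11 in K700E, against 4 of 14 and 11 of 22 in WT (unadjusted p = 0.0484). POLE, the catalytic subunit of DNA polymerase epsilon, used the near site in 82.6% of 23 reads in K700E and in 100% of 45 in WT (unadjusted p = 0.0499). Its 4 far reads were all in K700E replicate 2, so it is a member only through K700E and its direction was fixed by the rule. GK5, TBC1D32, CRYZL1, POLE and ANKHD1 make up the 5 with an unadjusted p under 0.05. CDC16 was also lower in the sums, with 0 of 11 near reads in K700E and 3 of 11 in WT (edgeR unadjusted p = 0.165). Its 3 near reads were all in WT replicate 1, so it is a member only through WT.

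Of 31 genes on the list of reported SF3B1-mutant 3′ splice site targets, 5 had a member pair and only that of ANKHD1 was deep enough to test. ENOSF1, which encodes an enolase superfamily member, had 1 near and 0 far reads and 2 near and 7 far reads in K700E, against 0 of 3 and 0 of 5 near reads in WT. DLST, a subunit of the 2-oxoglutarate dehydrogenase complex, had 1 near read of 3 and 0 of 2 in K700E, against 0 of 1 and 0 of 3 in WT. SERBP1, an mRNA-binding protein gene, had 1 of 1 and 4 of 5 in K700E and 0 of 1 and 2 of 2 in WT. These 3 pairs, with at most 18 reads each, were not tested, and ENOSF1 and DLST are members only through their near reads in K700E.

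Of 27 factors of 3′ splice site recognition, DDX42 and RBM39 had a member pair, and of 35 SR and hnRNP proteins only PCBP2 did. None of the 3 had 10 junction reads in every library, so 0 were among the 24 pairs tested; RBM39 entered only the fit with 10 reads per genotype, where it did not pass (edgeR adjusted p = 0.850). DDX42, an RNA helicase associated with SF3B1, stood at 25% of 4 reads in K700E and 16.1% of 31 in WT. PCBP2, a poly(C)-binding protein whose pair is also annotated to an overlapping gene without a symbol, stood at 40.9% in K700E and 37.8% in WT.

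The share of reads over the intron that carried either junction did not separate the genotypes in the 24 pairs. Junction reads at both sites were divided by the larger of the pair's intron read counts, capped at all reads. The 24 pairs were selected for junction reads in every library, which favours spliced introns. It averaged 88.2% and 89.0% in K700E and 88.4% and 87.1% in WT, a difference of 0.82 percentage points (exact permutation test, two-sided, p = 0.667). Only introns placed on GENCODE 29 were used, so sites that it lacks have no value here.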

How the data were processed

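Long-read tables of 4 samples were used. Per the file headers, the authors deposited 2 whole-number read counts per annotated intron, reads over it and reads with its junction, and their ratio, rounded. Per the submitters' processing notes, cutadapt, minimap2 and hg38 were used; the sources used here name neither versions nor how reads were assigned. The second deposited table per sample, of RNA 3′ ends, has no identifiers and was not used here.

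Rows were placed on GENCODE 29 by transcript (without version), intron number, start and strand (87.3 to 87.6% of rows). Rows of the same intron were counted once with the highest count; 95 to 134 introns per library disagreed. Pairs with 10 junction reads in every library were fitted in edgeR 4.0.16 (R 4.3.3), with near and far counts as paired columns, 1 coefficient per library, 1 for site and 1 for site by genotype, and a dispersion of 0. The quasi-likelihood step estimates the spread between libraries. Standard errors were taken from the F statistic. Benjamini-Hochberg adjustment ran over all pairs fitted. DESeq2 1.42.0, limma 3.58.1 (0.5 added per count) and other filters were alternatives. Library scaling does not enter a share within a library. The fit was tested on simulated data. Group means were compared by exact permutation (scipy 1.17.1). Intervals (95% Wilson) and the limit of 0 reads (3 counts) cover counting error only, since no molecular identifiers are mentioned.

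Pairs named by rule were those past the test, separated pairs with at least 20 reads in every library, tested pairs in reported target genes and the 6 most read; 23 of the 24 tested pairs are given. 1 tested pair and 1 pair of the target list enter every count but are not reported here. Members and lists were chosen with earlier results of these data known.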

Additional observations from a re-analysis of the deposited data

How the results depend on the processing

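No 12 to 40 nt pair passed in edgeR under any planned or added alternative, nor in DESeq2 or limma. The number with an unadjusted p under 0.05 was 1 of 24 as reported, 0 with DESeq2 (0.643% of all 311), 3 with limma (8.04% of all 311), 0 of 3 at 20 reads, 7 of 228 at 1 read (0.78% of all 4489 pairs at that depth), 0 with at least 5 reads at the less used site, 0 without other close sites and 5 of 109 at 10 reads per genotype; it was 0 to 0 with any 1 replicate left out. At a minimum of 5 reads the mean difference turned to 0.73 points, that at 21 to 30 nt to 1.58 and the contrast with 41 to 200 nt pairs to 3.07. Leaving out single replicates moved the mean difference between -2.15 and -0.70 points, the 3 distance classes between 0.01 and 7.66, -2.84 and -1.04, and -6.32 and -3.91, the contrast between -3.57 and -2.49 and efficiency between 0.14 and 1.51. It moved ANKHD1 between -42.1 and -22.7 points, OGT between -5.78 and 7.86, NCAPG2 between -10.0 and -0.996, UBR4 between -0.76 and 0.80 and the NUP107 pair at 32 nt between -1.67 and 2.50. The distance class at 12 to 20 nt had no pair at 20 reads. Replicate numbers are shared between genotypes without a stated pairing, and the K700E tables carry other labels inside, MUT2 and MUT3; deviations of same-numbered libraries had a correlation of 0.19 over the 24 pairs and 0.05 over all 311. With a replicate block 0 pairs passed, 1 had an unadjusted p under 0.05 and the mean difference stayed at -1.42. In K700E replicate 1 the 24 pairs had 10 to 27 junction reads each, so counting intervals are wide there.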
